A study of Mus musculus with 4 samples.

Results

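The cadherin and protocadherin genes of cultured mouse bone marrow mesenchymal stem cells (MSCs), which can form bone and fat, were searched for called regions (peaks) of the histone mark H3K36me2, dimethylated lysine K36 of histone H3. The members were the protein-coding genes on chromosomes 1 to 19 whose RefSeq symbol is Cdh or Pcdh ending in a number. They came to 90 of 20665 protein-coding genes: 33 single genes, called unclustered here, and 57 protocadherins of the clustered locus on chromosome 18. Pcdh19 on the X chromosome and the pseudogene Pcdhgb8 fall outside that rule. Of the 2 ChIP libraries, 1 is of cells that received melatonin, the pineal hormone, at 1 µM for 24 hours, and 1 of untreated cells. The groups follow the treatment label, since the protocol text repeats the melatonin treatment for every library. Each was compared by its authors with its own input library, made without antibody. The cells of all 4 libraries were grown in the same serum-containing medium. The series' design text speaks of old donors, but the labels of these libraries give no age, sex or strain, and do not say whether animals were pooled. With 1 ChIP library per condition, every difference below is between those libraries and has no replicate check, so no p-value between conditions was computed.

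Cadherins are adhesion proteins that hold neighbouring cells together in a calcium-dependent way. The classical cadherins of type I and type II bind catenins with their tails and through them the actin skeleton, and N-cadherin (Cdh2) and cadherin-11 (Cdh11) are the best known cadherins of mesenchymal and bone-forming cells. Protocadherins share the extracellular repeats but lack the classical catenin-binding tail, and are best known from neurons. H3K36me2 is written by enzymes such as NSD2 and can lie over gene bodies and intergenic stretches.

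A called H3K36me2 region was found at 10 of the 33 unclustered genes in at least 1 library, against 14.1% of all protein-coding genes. A gene counted as marked if at least 1 bp of a peak fell within the gene or its flanks of 10 kb. Nearest to that limit from inside was Cdh11, 6.52 kb from its peak, and from outside Cdh18, with a further untreated peak 20.7 kb away. By that rule 6 of the 33 unclustered genes (18.2%) were marked in the melatonin library, where 9.24% of all protein-coding genes were, and 6 (18.2%) in the untreated library, where 8.69% were. These genes are long, with a median of 123 kb. Other genes of the same chromosome and length class had a peak often enough that 9.20 and 8.56 marked members would have matched them. For 3 members length class alone was used. The 6 in each library were a higher share than among all genes and fewer than the matched numbers. Neither gap was tested. In both libraries 2 members were marked, Pcdh15 and Cdh12 (3.79% of all genes). With melatonin alone 4 were marked, Cdh2, Cdh11, Cdh17 and Cdh26 (5.44% of all genes). Without melatonin alone another 4 were marked, Cdh1, Cdh13, Cdh18 and Pcdh9 (4.9% of all genes). The remaining 23 had no peak in either library (14.1% of all genes had a peak in at least 1).

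The number of peaks fell further below the matched number than the number of marked genes. The unclustered members held 6 peaks with melatonin, where 31.6 would have matched other genes of their chromosomes and lengths, and 9 without, against 34.5. Per Mb of gene and flank this was 0.599 peaks (exact 95% Poisson interval 0.220 to 1.30) with melatonin and 0.899 (0.411 to 1.71) without. All protein-coding genes together held 2.44 per Mb and 2.48 per Mb. These intervals cover counting error only and treat peaks as independent. The plot of peaks against gene length shows the members along the floor of the cloud. Most other genes lie there too, since 14.1% of all protein-coding genes had a peak in at least 1 library.

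**Figure D1:**
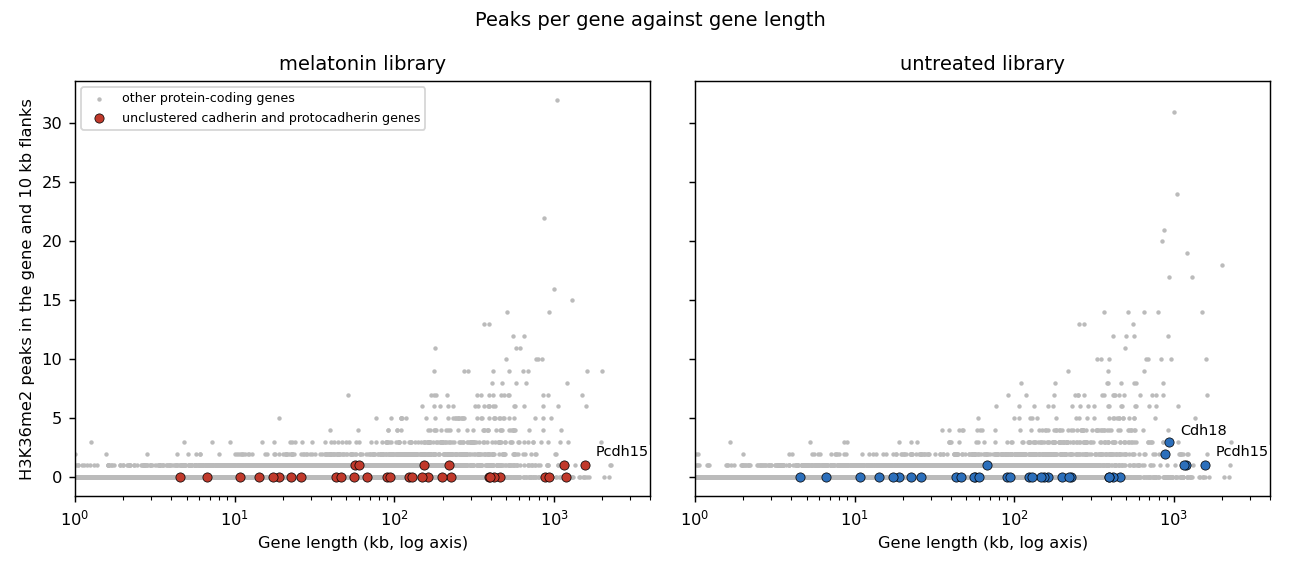
Number of H3K36me2 peaks in each gene and its 10 kb flanks (y axis) against gene length in kb (x axis, log scale, genes under 1 kb not drawn) in the 2 libraries. Grey points are other protein-coding genes and coloured points the 33 unclustered cadherin and protocadherin genes, which reach at most 1 peak with melatonin and 3 without.

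No listed start site of a member lay in a peak. RefSeq start sites were listed for 21 of the 33 genes (24 starts, GRCm38.p6), and none of the stretches of 250 bases before them overlapped a peak in either library, as was so for nearly all protein-coding starts (0.0697% overlapped one with melatonin and 0.0647% without). The stretches before the starts of the protocadherins Pcdh9 and Pcdh15 and of the type II cadherin Cdh18 are shown as examples from long genes with peaks. Cdh12, which also had a peak in each library and a listed start, is not shown. The distances below run to the listed start of each gene. CG dinucleotides are in capitals, and each is written 5′ to 3′ on the strand of the gene.
Pcdh9 (chr14:93890670-93890919, minus strand): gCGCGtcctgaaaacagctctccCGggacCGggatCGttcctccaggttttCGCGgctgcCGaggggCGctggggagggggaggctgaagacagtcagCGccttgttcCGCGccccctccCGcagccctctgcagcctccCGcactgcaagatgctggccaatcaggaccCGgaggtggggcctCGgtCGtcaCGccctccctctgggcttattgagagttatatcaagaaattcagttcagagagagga
Cdh18 (chr15:23036213-23036462, plus strand): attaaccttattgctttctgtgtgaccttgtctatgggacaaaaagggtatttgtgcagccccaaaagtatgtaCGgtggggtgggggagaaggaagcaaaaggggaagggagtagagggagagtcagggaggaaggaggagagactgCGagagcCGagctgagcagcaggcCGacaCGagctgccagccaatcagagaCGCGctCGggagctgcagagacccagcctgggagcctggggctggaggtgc
Pcdh15 (chr10:73821617-73821866, plus strand): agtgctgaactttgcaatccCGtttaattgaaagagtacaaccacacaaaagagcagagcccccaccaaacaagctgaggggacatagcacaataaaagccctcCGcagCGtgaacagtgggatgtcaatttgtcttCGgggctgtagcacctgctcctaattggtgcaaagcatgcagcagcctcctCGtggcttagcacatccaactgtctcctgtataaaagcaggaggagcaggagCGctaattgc

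The 3 stretches differ in CG content, with 18 CG dinucleotides before Pcdh9, 8 before Cdh18 and 6 before Pcdh15. The median was 9 over the 24 member starts and 10 over 20085 protein-coding starts on chromosomes 1 to 19. At least 15 CG dinucleotides were found in 9 of the 24 member starts (37.5%) and in 37.8% of all. The letters TATAAA, searched on both strands, occurred before Pcdh15 and Pcdh8, or 8.33% of member starts, against 11.7% of all. Member starts ranged from 0 CG dinucleotides before Cdh26 to 30 before Cdh22, a gene with no peak. No start was listed for 12 members, among them Cdh17, whose melatonin peak spans the left end of the gene.

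The 9 longest members together held fewer peaks than the matched number. These members of 300 kb or more held 2 peaks with melatonin (0.265 per Mb), where 24.4 would have matched, and 8 without (1.06 per Mb), against 27.9. Of these 9, 2 were marked with melatonin, where 49% of all genes of that length were, and 5 without, where 47.8% were. The untreated share of marked genes was thus near the background, and it was the number of peaks in each that was low. Counting both libraries, the 9 members had a median of 0.830 peaks per Mb and 524 other genes of that length a median of 2.46. The gap was wider in the pooled densities, 1.33 per Mb for the members and 6.40 for the others, of which the 52 richest held 51.5% of the peaks. Of those 524 genes, 41.4% had no peak in either library, as had 4 of the 9 members. The 24 shorter members held 4 peaks with melatonin (1.62 per Mb), where 7.19 would have matched, and 1 without (0.404 per Mb), against 6.65. The long members thus had the lower density with melatonin and the shorter ones without. Of the shorter members 4 were marked with melatonin (8.19% of all genes under 300 kb), where 4.38 would have matched, and 1 without (7.65%), where 3.88 would have matched.

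Pcdh15 encodes a protocadherin of the tip links of inner ear hair cells and is the longest member, at 1554 kb (chromosome 10, 73096277 to 74649831). It had 1 peak in each library. The melatonin peak at 74619077 to 74620077 lay inside the gene, its middle 30.3 kb from the right end, with a fold over input of 15.2 and 12.3 tags per 10000000. That fold rested on 1 input tag, and the tags were below the melatonin list's median of 13.4. The untreated peak at 74651149 to 74652149 lay 1.32 kb beyond the right end, with a fold of 4.61 and 13.6 tags. Both stood near the right end of the gene, 797 and 829 kb from the listed start and 31.1 kb from each other. That start, on the plus strand, lies 726 kb inside the left end and is the only 1 listed. Chromosome 10 had the highest peak density of the chromosomes with members, 6.28 per Mb with melatonin and 6.69 without. The alpha-T-catenin gene Ctnna3 has almost the same length (1574 kb) and lies on the same chromosome, and it held 6 and 10 peaks. The other 2 genes of 1000 kb or more on that chromosome were Anks1b, with 1 and 2 peaks, and Nkain2, with none, so Pcdh15 lay within the spread of that class.

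Cdh12, a type II cadherin best known from the brain, spans 1150 kb of chromosome 15 (20448878 to 21598421). Its melatonin peak at 20731730 to 20732730 had a fold of 5.36 and 13 tags per 10000000. Its untreated peak at 20707194 to 20708741 had a fold of 9.13 and 21.6 tags, and with 1547 bp it was the widest of the member peaks. The 2 lay 23.0 kb apart and did not overlap, both 378 kb or more from the listed start. That start, on the plus strand, lies 663 kb inside the left end, so both peaks fall between the left end and the start. Beside Cdh12, Cdh18, another type II cadherin (929 kb, 22548898 to 23477491), had the most peaks of any member. It had 0 with melatonin and 3 without, at folds of 6.41, 5.49 and 4.70. The middle of the first lay 4.03 kb inside the left end of the gene, and the peak nearest to the listed start was 18.5 kb from it. That start, on the plus strand, lies 488 kb inside the left end, so all 3 peaks fall between the left end and the start. The first peak was thus near the beginning of the annotated gene. Among 19 other genes of 300 to 1000 kb on chromosome 15, 14 had a higher density than Cdh18 and 5 a lower one. They include the delta-catenin gene Ctnnd2 (857 kb), with 4 and 2 peaks.

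Pcdh9, a delta-1 protocadherin (879 kb of chromosome 14, 93013700 to 93892834), had no melatonin peak, and the nearest lay 2822 kb away. Without melatonin it had 2, at 93586181 to 93587181 (fold 4.23, 12.5 tags per 10000000) and 93674310 to 93675310 (fold 5.41, 14.4 tags), the nearer 215 kb from the listed start. Of 25 other genes in that chromosome and length class 15 had a higher density and 10 a lower one. Cdh13 encodes T-cadherin, a cadherin anchored by a lipid instead of a tail. It had 1 untreated peak in 1185 kb of chromosome 8 (118140017 to 119324929), at 118883369 to 118884369 with a fold of 4.84, and its nearest melatonin peak lay 630 kb away. Among the 5 other genes of 1000 kb or more there, Nrg1 had 3 melatonin peaks and the other 4, Csmd1, Sgcz, Tenm3 and Galntl6, had none. Low counts were thus common among the longest genes of chromosome 8. The remaining long members had no peak in either library: Cdh4 (R-cadherin, type I, 457 kb), Pcdh7 (delta-1, 417 kb), Cdh23 (the tip-link partner of Pcdh15, 394 kb) and Cdh8 (type II, 393 kb).

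**Figure D2:**
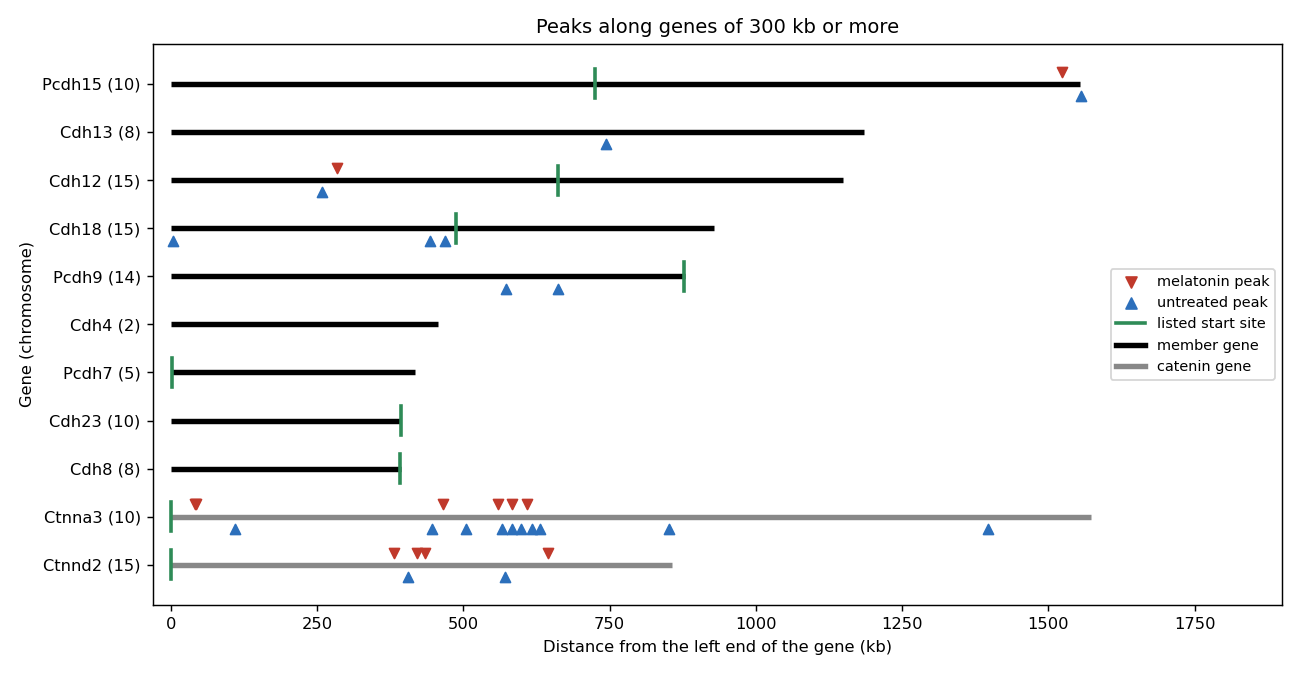
Peaks along the 9 member genes of 300 kb or more and 2 catenin genes of like length, drawn as distance from the left end of the gene in kb, with the chromosome in brackets. Red triangles above a gene are melatonin peaks, blue triangles below it untreated peaks, and green bars listed start sites where the table gives one. Ctnna3 carries 6 and 10 peaks, while Pcdh15, of almost the same length, carries 1 of each.

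The mesenchymal cadherin genes had their peaks just beyond the gene. Cdh2 (N-cadherin, type I, chromosome 18, 16588877 to 16809246) had 1 melatonin peak 2.14 kb past its right end, at 16811382 to 16812382. Its fold over input of 34.8 was the highest of all member peaks and above 99.9% of the melatonin list, but it rested on 0.5 input tags, and its 14.1 tags per 10000000 were close to the list's median of 13.4. Cdh11 (type II, chromosome 8, 102632095 to 102785493) had 1 melatonin peak 6.52 kb past its right end, at 102792008 to 102793262, with a fold of 7.10 and 17.3 tags. The nearest untreated peaks were 156 kb from Cdh2 and 121 kb from Cdh11. A rule of gene body alone, or of 2 kb on either side, leaves both genes unmarked. No start site was listed for Cdh2 or Cdh11, so whether the right end is the start or the finish of either gene was not determined.

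The other marked members were shorter. Cdh1 (E-cadherin, the epithelial type I cadherin) had 1 untreated peak inside the gene (chromosome 8, 106620062 to 106621062, fold 4.23). Cdh17, a cadherin of liver and intestine, had 1 melatonin peak over the left end of the gene (chromosome 4, 11757899 to 11759204, fold 6.67), and Cdh26 had 1 in its middle (chromosome 2, 178457406 to 178458406, fold 5.36). The type I genes Cdh3 (P-cadherin), Cdh15 (the muscle cadherin) and Cdh4 had no peak. Among the type II genes Cdh5 (VE-cadherin of endothelium), Cdh6, Cdh7, Cdh8, Cdh9, Cdh10, Cdh19, Cdh20, Cdh22 and Cdh24 had no peak. All 4 delta-2 protocadherin genes, Pcdh8, Pcdh10, Pcdh17 and Pcdh18, had none, and neither had Cdh16, Pcdh1, Pcdh12 and Pcdh20. For the 23 genes without a peak in either library, the nearest melatonin peak lay 52.8 to 3875 kb away (median 486 kb) and the nearest untreated peak 23.9 to 3850 kb away (median 451 kb).

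By subfamily, 2 of 13 type II genes were marked in each library, where 4.63 and 4.06 would have matched. They held 2 and 4 peaks, against 15.3 and 15.4. The 5 type I genes held 1 peak in each library, against 3.98 and 4.10. The 3 delta-1 protocadherin genes held 0 and 2 peaks, against 4.45 and 5.46. The 4 delta-2 genes are short, so that 0.597 and 0.509 peaks would have matched their 0. The plot of the subfamilies shows the called number left of the matched one in every row.

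**Figure D3:**
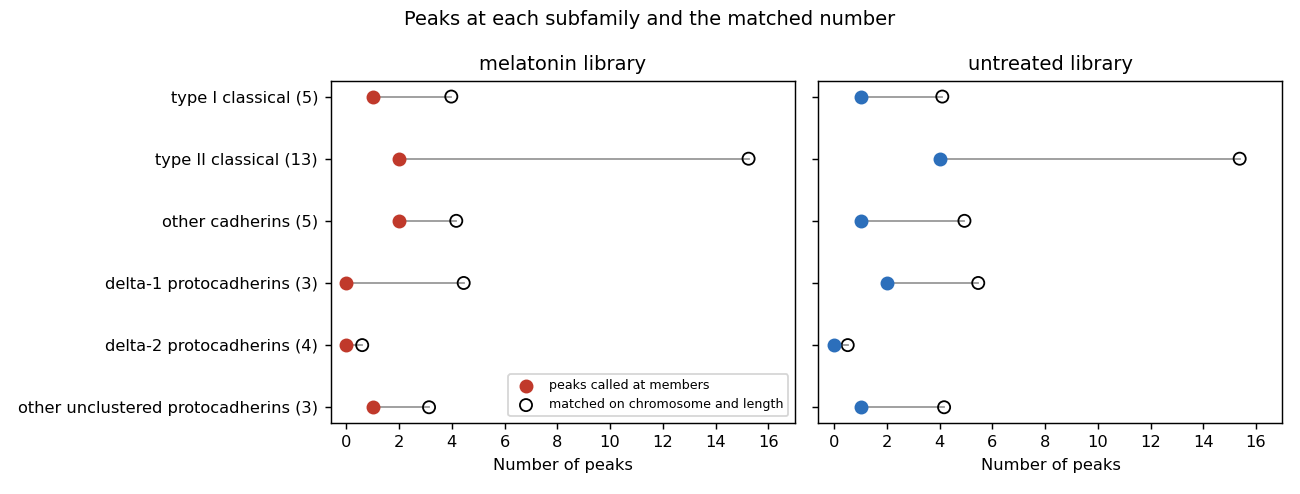
Number of peaks called at each subfamily (filled) and the number that other genes of the same chromosomes and length classes would give (open), per library, with the number of genes in brackets. Pcdh15, Cdh12 and Cdh13 were matched on length class alone. Type II cadherins show the widest gap, 2 called against 15.3 with melatonin and 4 against 15.4 without.

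The 57 clustered protocadherins had no peak in either library, where 9.24% (melatonin) and 8.69% (untreated) of all protein-coding genes had one. The locus is a tandem array of Pcdha (14 genes), Pcdhb (22) and Pcdhg (21). The alternative first exons of Pcdha and Pcdhg give neurons surface identities. The Pcdha and Pcdhg bodies are long (medians 205 and 116 kb) and overlap, so the 57 are not independent. The Pcdhb genes are short, with a median of 3.42 kb. It spans 0.912 Mb of chromosome 18 (36930285 to 37841873). At the mean density of that chromosome, 4.11 (melatonin) and 4.55 (untreated) per Mb, 3.83 and 4.23 peaks would have fallen in the locus and its flanks. The nearest peaks lay 665 kb away with melatonin and 567 kb without. Pcdh1 and Pcdh12, which start farther along the chromosome at 38185914 and 38267092, were also unmarked.

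The melatonin peaks at members had folds above the median of their list, while their tags, and both measures of the untreated peaks, were near it. Within a list the authors' fold over input, tags and region size describe each peak. The 6 melatonin peaks had a median fold of 6.88 (range 5.36 to 34.8) where the list had 5.11, and a median of 13.6 tags per 10000000 where the list had 13.4. Their median of input tags was 3 where the list had 3.5. The 9 untreated peaks had a median fold of 4.84 (4.23 to 9.13) where the list had 4.87, and 12.9 tags where the list had 13.6. Of the 15 peaks, 12 had the smallest width of 1000 bp. Inside the gene body lay 12 of them and in a flank 3, and none overlapped another gene. A peak of about 18 tags, as at Cdh12 with melatonin, has an exact 95% Poisson interval of 10.7 to 28.4 tags, which covers counting error only.

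No member peak overlapped between the libraries. From the melatonin list, 0 of 6 met an untreated peak (95% Wilson interval 0 to 39.0%), where 6.15% of the whole list did. From the untreated list, 0 of 9 met a melatonin peak (0 to 29.9%), where 5.62% did. These intervals include the share of the whole list, so a difference was not detectable with so few peaks. The ratio of melatonin to untreated peaks at members was 0.667 (exact 95% binomial interval 0.195 to 2.1), and over chromosomes 1 to 19 it was 0.920 (0.892 to 0.95). Members of 300 kb or more gave 2 against 8 (ratio 0.25, 0.0259 to 1.25) and shorter members 4 against 1 (ratio 4, 0.396 to 197). Without Cdh18 the ratio was 1 (0.267 to 3.74), and with peaks under a 6-fold enrichment left out it was 2 (0.287 to 22.1). No difference between the libraries was thus detectable at the members.

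The surroundings of the members were also low in peaks, less so than the genes themselves. The 0.5 Mb beyond the flanks on either side had a melatonin density of 1.36 per Mb (0.978 to 1.85) and an untreated density of 2.06 (1.58 to 2.64). In the 2 Mb beyond them there were 1.88 (1.63 to 2.17) and 2.32 (2.03 to 2.63). Chromosomes 1 to 19 as a whole had 3.14 and 3.41. The order from gene to surroundings to whole chromosome was the same in both libraries. The intervals of the genes and of the 0.5 Mb beyond them overlapped in each.

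**Figure D4:**
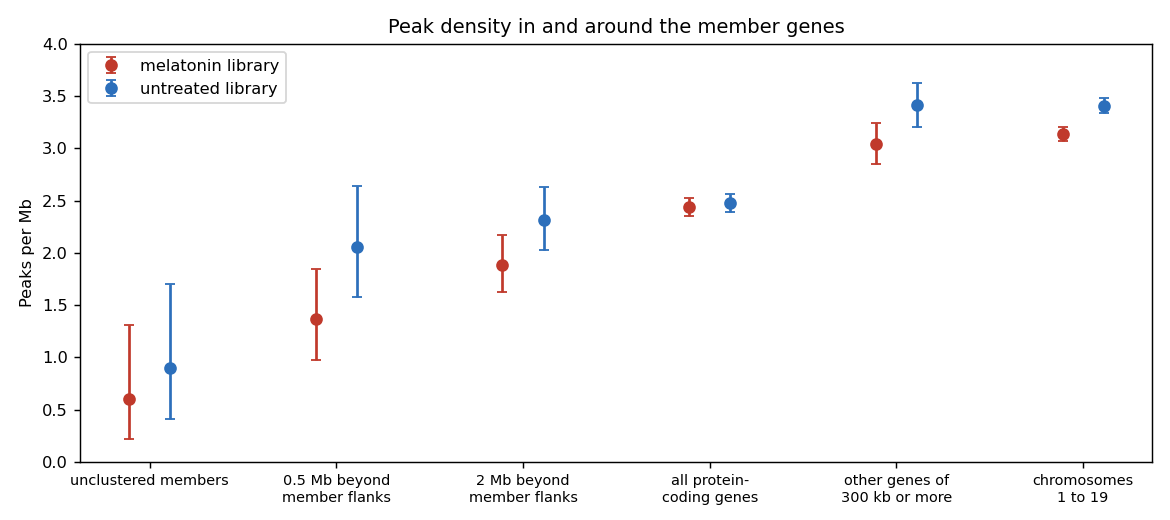
Peaks per Mb (y axis) in the unclustered member genes with 10 kb flanks, in the 0.5 Mb and 2 Mb beyond, in all protein-coding genes, in other genes of 300 kb or more and over chromosomes 1 to 19. Points are single libraries and bars exact 95% Poisson intervals. Members are lowest, at 0.599 with melatonin and 0.899 without.

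Several members lie next to each other in long stretches, some of which held fewer peaks than the rest of their chromosome. Stretches were formed from members under 10 Mb apart, a rule chosen after the lists had been seen. The widest contrast was on chromosome 15, where 10.4 Mb from Cdh6 to Cdh18 (13028699 to 23477491) hold the type II genes Cdh6, Cdh9, Cdh10, Cdh12 and Cdh18. That stretch had 2 melatonin peaks and 7 untreated peaks. At the density of the rest of the chromosome, 5.21 and 5.68 per Mb, it would have had 54.5 and 59.4. Of those peaks 1 and 4 were at members. On chromosome 14 the 14.1 Mb from Pcdh8 to Pcdh9 had 10 and 20 peaks, against 45.8 and 42.9. On chromosome 3 the 4.38 Mb from Pcdh10 to Pcdh18 had 4 in each library, against 17.6 and 21.9. By contrast, the 6.21 Mb from Cdh20 to Cdh19 on chromosome 1 had 24 and 19 peaks, against 19.4 and 22.5, although none was at its 3 members. The 7.65 Mb from Cdh8 to Cdh1 on chromosome 8 had 16 and 22, against 19.1 and 18.9.

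**Figure D5:**
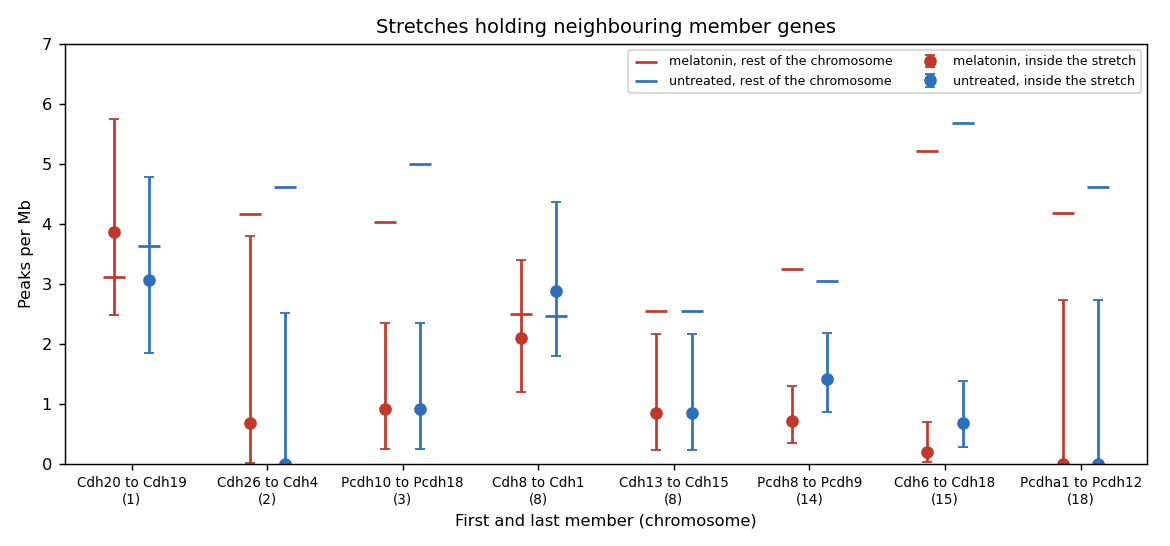
Peaks per Mb (y axis) in stretches with neighbouring members (x axis, first and last member, chromosome in brackets). Points with exact 95% Poisson intervals are the stretch in each library and short lines the rest of that chromosome. From Cdh6 to Cdh18 the densities were 0.191 and 0.670, below 5.21 and 5.68 for the rest of chromosome 15.

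The intracellular partners of cadherins were nearer to other genes. Of 14 catenin and junction genes 4 were marked in each library (28.6%), where 3.51 and 3.41 would have matched, and their 12 and 16 peaks stood beside 14 and 15.6. Ctnna3 and Ctnnd2 held most of them. Vcl (vinculin, fold 7.83) had a peak with melatonin alone, Pkp4 (plakophilin 4) 3 without melatonin alone, and Afdn (afadin) 1 in each. The beta-catenin gene Ctnnb1, Ctnna1, Ctnna2, Ctnnd1, Jup, Pkp1, Pkp2, Pkp3 and Arvcf had none. None of 9 desmosomal cadherin genes was marked in either library, where 1.44 and 1.16 would have matched. Of 17 Fat, Dachsous, flamingo, calsyntenin and cadherin-related genes, 0 were marked with melatonin and 1, Fat2 (fold 4.84), without, where 3.10 and 2.88 would have matched. None of these counts was tested.

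Peaks of this mark cannot show whether the cells expressed a lineage's genes, so the label MSC was not checked by expression. Of 10 mesenchymal stromal marker genes 2 were marked with melatonin and 4 without, where 0.958 and 0.875 would have matched. Of 5 endothelial marker genes 3 (Pecam1, Kdr and Emcn) were marked with melatonin and 2 (Kdr and Emcn) without, against 0.590 and 0.610. Of 5 myeloid marker genes 2 (Ptprc and Csf1r) and 0 were marked, against 0.777 and 0.836. Over all protein-coding genes the shares were 9.24% and 8.69%, so the stromal and endothelial counts stood above their matched numbers in both libraries and the myeloid count with melatonin. Whether other cell types contributed to the results was not tested. The melatonin library held 14180076.5 tags and 7663 peaks on chromosomes 1 to 19, and the untreated library 13198427.5 tags and 8325 peaks. By the authors' headers 1.12% and 1.24% of the tags lay in peaks. Regions under the authors' thresholds are not listed, so an unmarked gene may still carry H3K36me2.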

How the data were processed

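The members, lists and matching were chosen with earlier results of these data known. Peaks were called by the authors with HOMER findPeaks in histone style, separately for each ChIP library against its own input, per the file headers, with windows of 1000 bp stitched into regions. Per the same headers a region needed 4 times the input tags and a Poisson p of 1e-04 against input. For HOMER itself a version is not given in the sources used here. Among the columns, the deposited tag counts are a signal: tags per 10000000 and, beside them, ChIP and input tags with the deeper library scaled to the shallower one. The deposited findPeaks score is the authors' tag score, the deposited fold is their ratio of ChIP to input tags, and the deposited p-value is their Poisson value without adjustment. BWA 0.7.13, Picard 1.126 and MACS2 2.1.0 are listed in the submitters' processing notes, which also name mm39. Chromosome 3 has a peak ending at 159805034 and chromosome 7 at 145328623. Both exceed the mm39 chromosome lengths, so coordinates were read as GRCm38 and joined to the RefSeq gene table of GRCm38.p6.

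The matched number sums, over members, the share of other protein-coding genes with a peak (or their peaks per Mb times the member's length) in the same chromosome and length class. Class edges were 10, 30, 100, 300 and 1000 kb. For 3 members with fewer than 10 such genes the class was taken over chromosomes 1 to 19. Chromosome densities run from the first to the last annotated gene. Every unclustered member is named, with the fold of each member peak, and so is every gene with a peak in the partner lists. Genes used as length neighbours were named after their values were seen. Intervals cover counting error only, since the labels describe no molecular identifiers and reads may repeat a molecule. The counting was tested on simulated peaks placed evenly at random along the chromosomes. That checks the counting alone. It does not measure how much the matched numbers vary where peaks crowd into some genes, as they do here. Python 3.11.15, pandas 2.3.3, scipy 1.17.1 and matplotlib 3.10.9 were used.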

Additional observations from a re-analysis of the deposited data

How the results depend on the processing

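Of 115 recomputed values, 105 stayed within 1.5 times the main count or within the main 95% interval. The other 10 were as follows. With peaks under a 6-fold enrichment left out, marked members fell to 2 in the untreated library, with 2 peaks or 0.1998 per Mb. The matched numbers of marked members fell to 4.90 with melatonin and 4.17 without, and those of peaks to 9.73 and 8.25, against 4 and 2 called. Matching on chromosome alone, without length, gave 3.57 and 3.30 marked members, below the 6 found in each library. Taking 2 Mb instead of 0.5 Mb beyond the flanks raised the melatonin density there to 1.88 per Mb. Gene bodies alone, flanks of 2 or 50 kb, a p of at most 1e-05, equal list lengths and leaving out Cdh18 moved no count of marked members or peaks past 1.5 times, and the called peaks stayed below the matched number in each. With the richest reference gene of each class left out, the matched peaks were 26.5 and 29.4. Matching on chromosome alone, the 2 Mb surroundings, other classes for the matched peaks, the richest gene left out and the 300 kb subset were chosen after seeing the data. No paired analysis was possible because each condition had 1 ChIP library, and no library could be left out. A depth of about 18 tags per peak limits all these counts.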

Other observations

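Low counts were not limited to cadherin genes among the longest genes. Of 52 other protein-coding genes of 1000 kb or more, 25 had no peak in either library. They include the contactin genes Cntn4 and Cntn5, the guidance receptor genes Robo1, Robo2 and Dcc, the teneurin genes Tenm2 and Tenm3, and Ctnna2, the neural alpha-catenin gene, all named after their values were seen. At the other end, Lrmda had 32 peaks with melatonin and 24 without, and Pard3b, a cell polarity gene, 16 and 31. The 3 members of that length, Pcdh15, Cdh12 and Cdh13, had 1 or 2 peaks each over both libraries.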
